A study of Mus musculus with 11 samples.

Results

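Islets of mice with a beta cell knockout of Zzef1, named βZKO_Mip in the labels, were compared with islets of littermate controls after both had been exposed to azoramide. All 15093 genes that passed the filter on low counts were compared between 3 libraries labelled knockout and 3 control libraries, which are 6 of the 11 libraries sequenced. The other 5 libraries, 3 control and 2 labelled knockout, received the solvent DMSO and entered the shared fit. At 16 weeks of age, mice of both genotypes had spent 4 weeks on a high-fat diet, and exposure to 10 µM azoramide lasted 24 h. Each library held RNA from islets of at least 3 mice of 1 genotype. The labels do not say what Mip stands for, which exons were removed, whether the control mice carry a Cre driver, or whether libraries of a genotype share mice, so the p-values measure only the spread between these libraries. All levels below are CPM, counts relative to the TMM-scaled size of the library, given for libraries 1, 2 and 3 of each group, and every difference is labelled knockout minus control on the log2 scale with its standard error (SE).

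ZZEF1 is a large protein with a zinc finger of the ZZ type and an EF hand, and it has been described as a reader of histone tails that works with Krüppel-like transcription factors. Azoramide is a small molecule known to modulate the unfolded protein response, the program by which cells match the folding capacity of the endoplasmic reticulum (ER) to its load, and to affect calcium storage in the ER. Beta cells make insulin in very large amounts and depend on that program. The comparison asks which transcripts differ between the genotypes while the islets are exposed to the compound.

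The 6 libraries were of like depth, with totals of 17955075 to 19430080 counts and 17687 to 17999 genes detected. Insulin, glucagon and somatostatin transcripts were abundant in every one, as islets should show. The first principal component of the 6 held 40.8% of the variance and did not separate the labels: scores were -12.3, 3.7 and 2.13 in the control libraries and 11.83, 17.24 and -22.59 in those labelled knockout. Labelled knockout library 3 stood on the far side of the control libraries from the other two, and its quality weight in voom was 0.499, against 0.953 to 1.288 in the other 5. The 10 most abundant genes took 26.3%, 22.6% and 25.3% of counts in the control libraries and 21.6%, 21.5% and 24.6% in those labelled knockout (2-sided exact permutation p = 0.2, where 3 against 3 libraries cannot give less than 0.1). Mitochondrial transcripts took 7.16% to 8.51% of counts in the 6 (2-sided exact permutation p = 0.7). The labels give no batch.

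The targeted gene was not lower in the libraries labelled knockout. Zzef1 (chromosome 11, 72796226 to 72927120, plus strand, GRCm38) was at 68.1, 64.3 and 67.4 CPM in the control libraries and 72.1, 77.7 and 68.7 CPM in those labelled knockout. All 3 libraries labelled knockout were above all 3 control libraries, by 0.13 (SE 0.079), 95% interval -0.036 to 0.30, edgeR adjusted p = 0.968. With DMSO the same difference was -0.26. These counts cover the whole gene, so removal of a short exon with the rest of the transcript kept would not be seen in them, and other islet cells also contribute. For that reason the text speaks of libraries labelled knockout, and each direction given rests on that label.

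Around Zzef1, differences centred on 0. Of 22 other genes tested within 1 Mb on chromosome 11, none was higher and 1 was lower at an unadjusted p under 0.05. Over all genes these shares were 2.47% and 2.52%. The median difference was 0.0036, and the groups did not overlap for 2 of the 22 (11.1% of all genes), 1 higher and 1 lower. The lower one was Camkk1 (chromosome 11, 73019008 to 73042073, plus strand), which encodes a kinase that activates calcium/calmodulin-dependent kinases, at 3.94, 3.11 and 3.11 CPM in the control libraries and 1.82, 1.83 and 2.22 CPM in those labelled knockout. Its groups did not overlap, with a difference of -0.79 (SE 0.24), edgeR adjusted p = 0.958; with DMSO the difference was 0.26. Atp2a3, another neighbour, encodes the ER calcium pump SERCA3 and is described with the calcium genes.

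No transcript passed the threshold of an adjusted p of 0.05 in edgeR (0 of 15093 genes, 0%), and the smallest adjusted p was 0.826. At an unadjusted p under 0.05 there were 754 genes (5%), 373 higher in the libraries labelled knockout (2.47%) and 381 lower (2.52%). The 2 groups of libraries did not overlap for 1682 genes (11.1%), 840 higher (5.57%) and 842 lower (5.58%). DESeq2 called 2 genes (0.0133%), Cttnbp2 and Nktr. All genes named below had an edgeR adjusted p between 0.826 and 0.999, so their values describe these 6 libraries.

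Differences were small for most genes. The median over all genes was 7e-04, the quartiles were -0.088 and 0.095, and the median SE was 0.12. The 95% interval of 10355 genes (68.6%) lay within 1.5-fold either way and that of 12336 genes (81.7%) within 2-fold, so the spread leaves room for larger differences mainly among weakly expressed genes. A difference of 2-fold or more was seen for 229 genes, of which 21 had a mean of at least 2 CPM over the 6 libraries. Among those 21 the groups did not overlap for 8 genes, 5 higher and 3 lower. The 5 were Itgax, Tyrobp, Ppfia2, Edil3 and Tac1 and the 3 were Cttnbp2, Tcte3 and Xlr3b. Of these 8, Ppfia2, Edil3, Tac1, Tcte3 and Xlr3b lie outside the naming rule and were chosen after their values were seen.

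**Figure D1:**
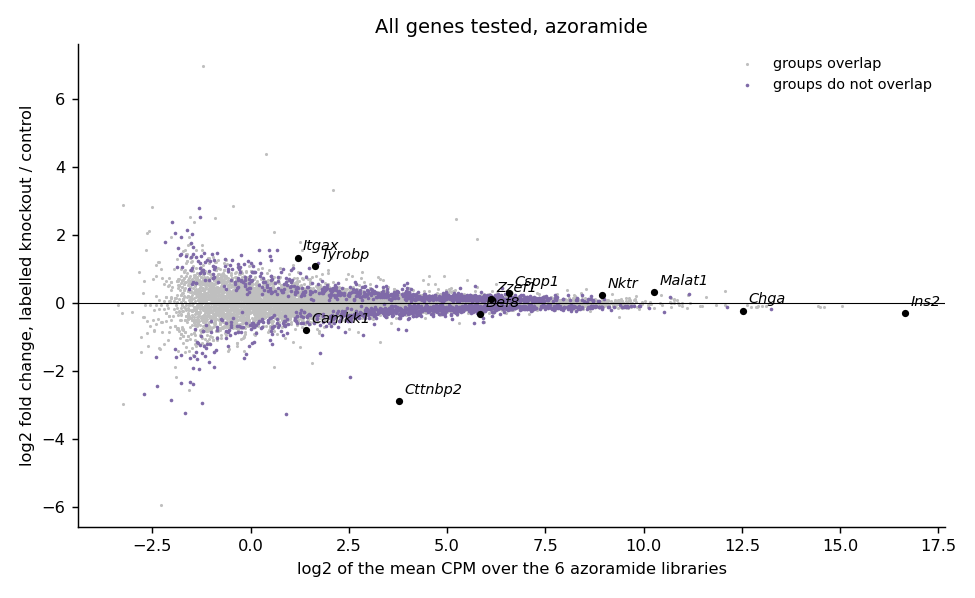
Difference between labelled knockout and control libraries with azoramide for each of the 15093 genes tested (vertical axis, log2 fold change) against its mean level (horizontal axis, log2 CPM over 6 libraries). Purple points are the 1682 genes whose groups do not overlap, grey points the rest, and black points named genes; spread widens toward low levels and Cttnbp2 stands far below most genes of its level.

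Cttnbp2 (chromosome 6, 18366478 to 18514843, minus strand), which encodes a cortactin-binding protein known from dendritic spines of neurons, had the largest difference of those 8. It was at 42.9, 14.8 and 14.6 CPM in the control libraries and 2.09, 3.17 and 4.67 CPM in those labelled knockout. Every library labelled knockout was below every control library, but control library 1 was far above the other two. The difference was -2.87 (SE 0.58), with edgeR adjusted p = 0.958 and DESeq2 adjusted p = 0.00231. Without control library 1 it was -2.16. With DMSO the difference was -0.16.

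Genes were taken for naming from expressed genes with an established symbol and groups that did not overlap. Of these, the 12 higher ones of smallest p were led by Cspp1, Malat1 and Nktr. The lower 12, given further on, were taken in the same way, so separate groups in either set follow from the choice. Cspp1 (chromosome 1, 10037987 to 10136768, plus strand), a protein of centrosomes and the spindle pole, had the smallest p of all and was at 89.5, 85.2 and 83.8 CPM in the control libraries and 109.5, 102 and 104 CPM in those labelled knockout. The difference was 0.29 (SE 0.057). Malat1, an abundant long noncoding RNA of the nucleus (chromosome 19, 5795690 to 5802672, minus strand), was at 1073, 1081 and 1109 CPM in the control libraries and 1341, 1276 and 1510.2 CPM in those labelled knockout. Labelled knockout library 3 was highest, and the difference was 0.34 (SE 0.071). Nktr (chromosome 9, 121719169 to 121756843, plus strand), a cyclophilin with stretches rich in arginine and serine, was at 456, 423 and 463 CPM in the control libraries and 522, 539 and 532 CPM in those labelled knockout. Its difference was 0.25 (SE 0.053), with edgeR adjusted p = 0.826 and DESeq2 adjusted p = 0.046.

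The other higher genes of this group showed differences of 0.23 to 1.34. Eml5, a microtubule-binding protein, differed by 0.24 (SE 0.059), and Hook3, which links cargo to the dynein motor, by 0.25 (SE 0.064). Zc3h7a, an RNA-binding zinc-finger protein, differed by 0.23 (SE 0.060), and Ubn2, a subunit of the HIRA histone chaperone complex, by 0.23 (SE 0.060). Ptbp2, a splicing regulator of neurons and endocrine cells, was at 70.0, 71.1 and 69.7 against 90.7, 88.6 and 76.8 CPM, a difference of 0.28 (SE 0.074), with labelled knockout library 3 the nearest to the control libraries. Tnfrsf22, a decoy receptor of the TNF receptor family, differed by 0.48 (SE 0.13). Itgax and Per2 are described with the macrophage markers and the clock genes.

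The lower 12 were led by Def8 (chromosome 8, 123423527 to 123463270, plus strand), which was at 67.1, 60.001 and 62.7 CPM in the control libraries and 50.7, 51.3 and 50.1 CPM in those labelled knockout, a difference of -0.32 (SE 0.066) with tightly grouped libraries. Hist1h1c, a linker histone gene, was at 90.2, 89.1 and 91.1 against 73.9, 65.3 and 77.2 CPM, a difference of -0.32 (SE 0.085), and Hist2h2aa1, a core histone gene with a near-identical copy beside it that makes its count uncertain, differed by -0.45 (SE 0.12). Pigyl differed by -0.42 (SE 0.11).

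Nqo1 and Ephx1, enzymes that act on foreign compounds, were 2 of the lower 12. Nqo1, a quinone reductase (chromosome 8, 107388225 to 107403206, minus strand), was at 38.5, 32.7 and 33.1 CPM in the control libraries and 27.04, 26.8 and 26.5 CPM in those labelled knockout. The 3 libraries labelled knockout lay almost on one level below the control libraries, at -0.38 (SE 0.11). Ephx1, the microsomal epoxide hydrolase, was at 62.9, 58.7 and 58.5 against 45.3, 45.0 and 57.4 CPM, and only library 3 labelled knockout came close to the control libraries, with a difference of -0.29 (SE 0.085). Nol3, an apoptosis repressor, differed by -0.38 (SE 0.10), Lamtor2, a subunit of the Ragulator complex on lysosomes, by -0.32 (SE 0.092), and the chemokine gene Ccl28 by -0.45 (SE 0.12).

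The direction of a difference went with the length of the transcript. Genes were split into 5 equal parts by exonic length in the GENCODE M21 annotation. Among the shortest, up to 2306 bases, 90 genes were higher and 263 lower with groups that did not overlap, whereas among the longest, from 7417 bases, 304 were higher and 81 lower. Medians from the shortest to the longest were -0.046, -0.022, -0.0021, 0.013 and 0.035. Between the DMSO libraries they rose in the same order, at -0.0446, -0.0132, 2e-04, 0.0064 and 0.014. Over 15089 genes the Spearman correlation of the difference with length was 0.17, given as a description because the genes share the same 6 libraries. Within single libraries, the correlation of a gene's deviation from its mean with length was -0.058, -0.048 and -0.19 in the control libraries and 0.014, 0.020 and 0.17 in those labelled knockout. The third library of each group thus held the extremes. The part of this trend in the gene groups below was not tested, beyond a fit with an offset for length and GC content whose values are given where they differ.

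**Figure D2:**
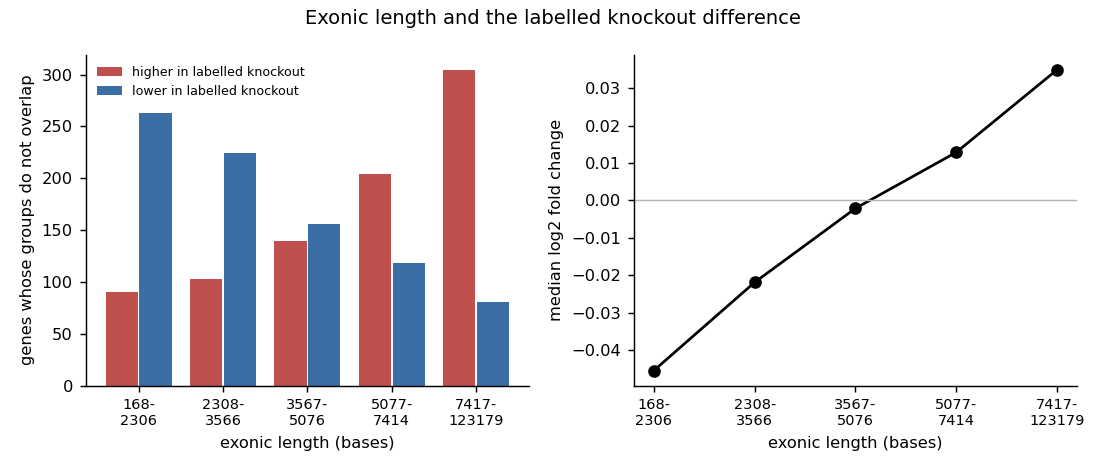
Exonic length in bases (horizontal axis, 5 equal parts of the genes tested) against the number of genes whose groups do not overlap (left, bars, higher in red and lower in blue) and against the median log2 fold change (right, points). Lower genes prevail among short transcripts, 263 against 90, and higher genes among long ones, 304 against 81.

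Genes for cytosolic ribosomal proteins, the protein part of the translation machinery, lay lower nearly together. Of 82 tested, 80 had a difference below 0 and the median was -0.11, against 7e-04 over all genes. The groups did not overlap for 59, all lower (72%, against 5.58% of all genes), and 32 were lower and none higher at an unadjusted p under 0.05 (39%, against 2.52% of all genes lower). None passed the adjusted threshold. Their summed level was 33547, 32323 and 32615 CPM in the control libraries and 30241, 31270 and 29915 CPM in those labelled knockout, a ratio of 0.928 (2-sided exact permutation p = 0.1, the smallest possible). The same test was run on 42 measures, without adjustment. Summed nuclear long noncoding RNAs, adipocyte markers (almost wholly Fabp4) and cell cycle genes reached that smallest value too. The median of the ribosomal proteins was -0.059 with an offset for length and GC content, -0.068 with plain library totals, and -0.078 between the DMSO libraries. Many ribosomal protein genes have near-identical pseudogenes, and how shared reads were counted is not given in the sources used here.

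Rpl18 was at 306, 299 and 294 against 259, 276 and 266 CPM (-0.17 (SE 0.052)), Rps27 at 264, 259 and 267 against 226, 228 and 235 CPM (-0.20 (SE 0.063)) and Rpl26 at 345, 334 and 344 against 303, 318 and 287 CPM (-0.17 (SE 0.055)). In each of these the 3 libraries labelled knockout were below all 3 control libraries. Messages of ribosomal proteins typically start with a C followed by a run of pyrimidines, the terminal oligopyrimidine tract through which their translation is regulated. By the rule given after the sequences, Rpl26 had either no such tract or no promoter in the set searched, so it is not shown. The region from 80 bases before the annotated start to 20 bases into the transcript is shown for a gene of each subunit, from RefSeq on GRCm38.p6, with that tract in capitals.
Rpl18, chr7:45717991-45718090, plus strand: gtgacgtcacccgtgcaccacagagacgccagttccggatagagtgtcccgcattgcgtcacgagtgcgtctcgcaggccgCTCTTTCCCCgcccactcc
Rps27, chr3:90213629-90213728, minus strand: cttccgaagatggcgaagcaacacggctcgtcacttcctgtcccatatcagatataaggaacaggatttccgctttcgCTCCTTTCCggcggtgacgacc
A C within 5 bases of the annotated start followed by at least 4 pyrimidines, searched on the transcript's strand only, was present in 30 of the 61 ribosomal protein genes with a RefSeq promoter (49.2%) and in 23.9% of the 11543 tested genes with one. Outside the ribosomal proteins, genes with such a start had a median difference of 8e-04 (2727 genes) and those without it 7e-04 (8755 genes).

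Long noncoding RNAs that stay in the nucleus lay on the higher side. Of 12 tested, 10 were above 0, 4 were higher at an unadjusted p under 0.05 (33.3%, against 2.47% of all genes higher) and none lower, and the median was 0.15. Kcnq1ot1, which silences imprinted genes in cis, was at 26.5, 23.6 and 32.7 against 33.8, 33.5 and 38.03 CPM (0.35 (SE 0.11)). Neat1, the scaffold of paraspeckles, was at 1293, 1140.1 and 1405 against 1554, 1379.7 and 1579 CPM (0.23 (SE 0.081)), with 1 library of each group overlapping, and Meg3, an imprinted RNA, was at 1546, 1473 and 1579.7 against 1758, 1601 and 1865 CPM (0.18 (SE 0.076)). Kcnq1ot1 lies antisense to Kcnq1, and the strand setting of the counts is not given in the sources used here. The summed level was 5355, 5146 and 5649 CPM in the control libraries and 6276, 5830 and 6501 CPM in those labelled knockout (2-sided exact permutation p = 0.1). With DMSO the median was 6e-04.

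Splicing and nuclear speckle proteins had 30 of 34 tested members above 0, with a median of 0.066, or 0.029 with the length and GC offset. The groups did not overlap for 5, all higher (14.7%, against 5.57% of all genes higher). Rbm25 was at 207, 214 and 206 against 226, 249 and 238 CPM (0.18 (SE 0.057)) and Luc7l2 at 311, 279.9 and 309.9 against 329, 315 and 367 CPM (0.17 (SE 0.065)). Both belong to the spliceosome's early steps of splice site choice. Nuclear genes of the respiratory chain and ATP synthase lay on the lower side, 63 of 72 below 0 with a median of -0.062, or -0.012 with the length and GC offset, and the groups did not overlap for 10, all lower (13.9%, against 5.58% of all genes lower). Ndufa7, a subunit of complex I, was at 70.0, 63.5 and 64.6 against 54.2, 59.4 and 55.2 CPM (-0.23 (SE 0.071)), and Ndufv3, another, at 102, 100.3 and 103 against 96.7, 92.6 and 82.1 CPM (-0.17 (SE 0.067)). Of the 13 proteins encoded by mitochondrial DNA, 12 were below 0, with a median of -0.089, and in none were the groups apart. Between the DMSO libraries the medians were -0.091 for the nuclear genes of the respiratory chain and ATP synthase and -0.106 for the mitochondrial ones.

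**Figure D3:**
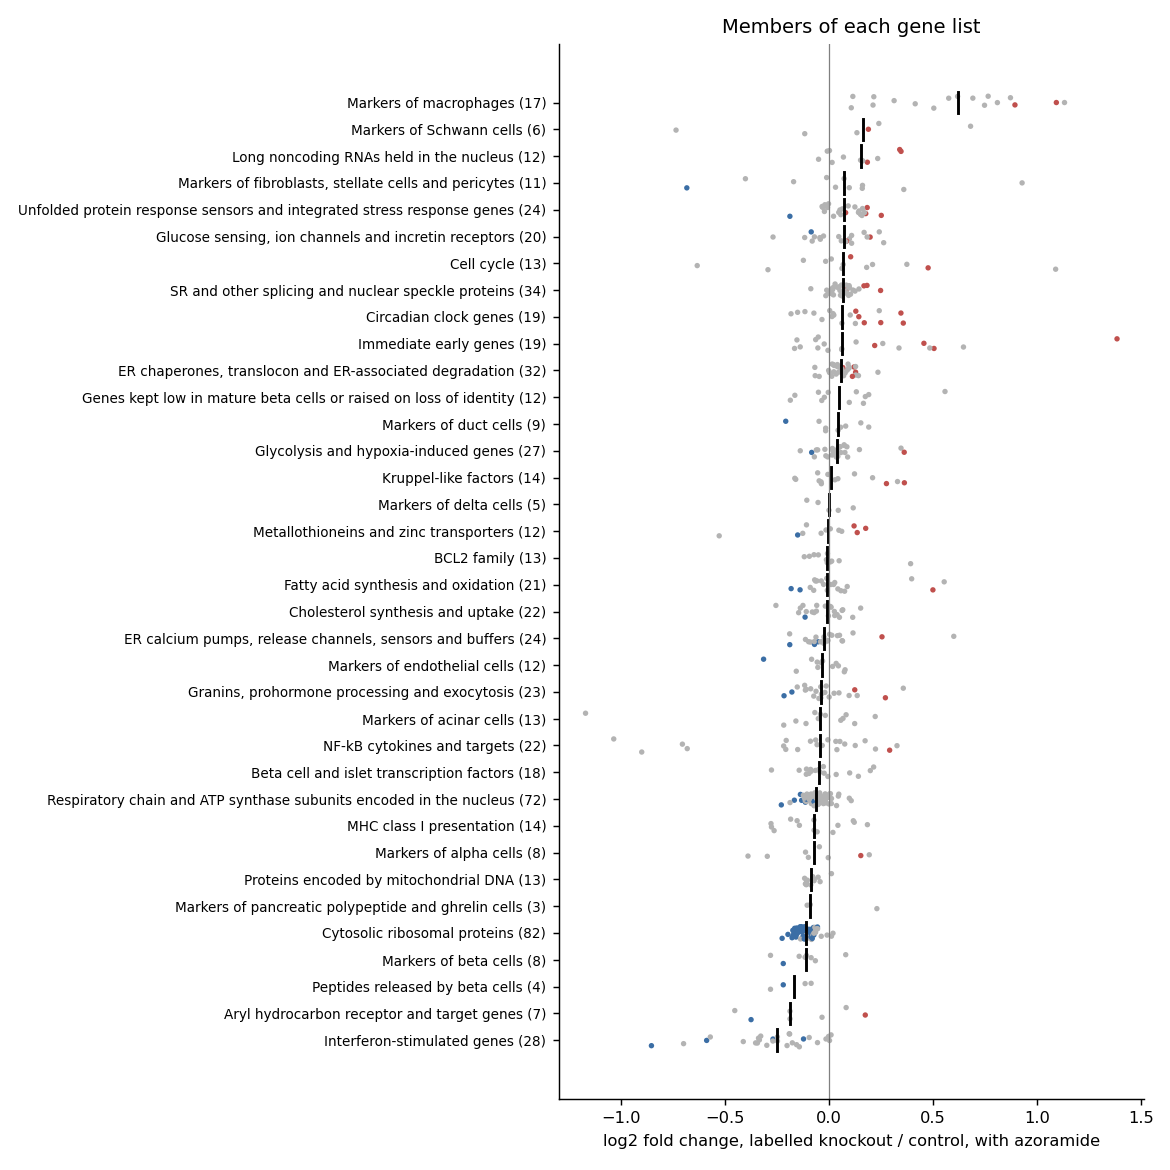
Log2 fold change of labelled knockout over control libraries with azoramide (horizontal axis) for each tested member of 36 gene lists with at least 3 tested members (1 row a list, number tested in brackets). Points are genes, red where the groups do not overlap and the labelled knockout is higher, blue where lower, grey where they overlap, and black bars are medians; ribosomal protein genes carry 59 blue points and no red one, and macrophage markers have the highest median, 0.62.

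The 4 peptide genes of beta cells all had differences below 0. Ucn3 was the only one at an unadjusted p under 0.05 (25%, against 2.52% of all genes lower) or with groups apart (25%, against 5.58%). Ins2, an insulin gene, was at 127294, 95322 and 118437 CPM in the control libraries and 81704, 85062 and 113633 CPM in those labelled knockout. Labelled knockout libraries 1 and 2 were below all control libraries and library 3 was among them, giving -0.28 (SE 0.13). Ins1 was at 25293, 21923 and 24429 against 21560.3, 19149.5 and 25399 CPM (-0.12 (SE 0.085)) and Iapp, islet amyloid polypeptide, at 36686, 31299 and 36694 against 33586, 32496 and 32462 CPM (-0.087 (SE 0.063)), both with overlap. Ucn3, urocortin 3 of mature beta cells (chromosome 13, 3940688 to 3945349, minus strand), was at 286, 309.9 and 327 CPM in the control libraries and 267, 272 and 253 CPM in those labelled knockout. Its groups did not overlap, at -0.22 (SE 0.068), and the difference with DMSO was -0.19. Together the 4 transcripts made up 189559, 148855 and 179888 CPM in the control libraries and 137118, 136979 and 171746 CPM in those labelled knockout, a ratio of 0.86 (2-sided exact permutation p = 0.2). The annotated span of Ins2 includes a read-through transcript that reaches a neighbouring gene. In such bulk samples, fewer cells of a type and less RNA per cell cannot be told apart.

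Transcription factors of beta cells had a median of -0.048 over 18 genes, 2 of them higher at an unadjusted p under 0.05 (11.1%, against 2.47% of all genes higher) and none with separate groups. Isl1, an islet determinant, was at 182, 188 and 187 against 228, 233 and 179 CPM (0.20 (SE 0.080)), and St18, a zinc-finger factor of islets, at 284, 281 and 288 against 352, 359.6 and 278 CPM (0.21 (SE 0.088)). In both, labelled knockout libraries 1 and 2 were above and library 3 below all control libraries. Of 20 genes of glucose sensing and excitability, 3 were higher and none lower at an unadjusted p under 0.05 (15%, against 2.47% of all genes higher). These were the sodium channel Scn8a at 42.6, 38.4 and 41.7 against 44.3, 45.9 and 50.6 CPM (0.20 (SE 0.074)), the calcium channel subunit Cacnb2 (0.24 (SE 0.092)) and the sodium channel Scn3a (0.17 (SE 0.080)). The groups did not overlap for 2 higher members and for 1 lower one (15%, against 11.1% of all genes). The lower one was Kcnj11, the pore subunit of the ATP-sensitive potassium channel, at 105, 115 and 105 against 103, 99.3 and 104 CPM (-0.087 (SE 0.056)). Of 12 genes normally kept low in mature beta cells or raised on loss of identity, only the repressor gene Rest had an unadjusted p under 0.05 (8.33%, against 2.47% of all genes higher). It was at 3.11, 1.96 and 1.89 against 3.65, 3.06 and 3.53 CPM (0.56 (SE 0.25)).

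Granins, the acidic proteins packed with hormones into secretory granules, had differences of both signs. Chga, chromogranin A (chromosome 12, 102554969 to 102565028, plus strand), was at 6284, 6308 and 6525 CPM in the control libraries and 4963, 5231 and 6249 CPM in those labelled knockout. It was lower in each library labelled knockout, least in library 3, at -0.22 (SE 0.074). Scg2, secretogranin II, was lower as well, at 10573, 9504 and 10700.1 against 9044, 8939 and 9192 CPM (-0.18 (SE 0.084)), and Scg5, a chaperone of the prohormone convertase PC2, was at 1079, 968 and 958 against 835, 895 and 971 CPM (-0.15 (SE 0.063)), with overlap. Scg3, which binds chromogranin A to granule membranes, was on the higher side without overlap, at 2170.4, 2018 and 2039 against 2649, 2509.9 and 2352 CPM (0.27 (SE 0.086)). Chgb, chromogranin B, was at 3527, 4158 and 3624 CPM in the control libraries and 5815, 5177 and 3487 CPM in those labelled knockout, high in labelled knockout libraries 1 and 2 and lowest of all in library 3, at 0.36 (SE 0.18). Snap25, a fusion protein of exocytosis, was at 238, 229.7 and 242 against 255, 264 and 254 CPM (0.12 (SE 0.058)). Chgb and Snap25 lie outside the naming rule and were chosen after their values were seen. Over the 23 genes of granules, processing and exocytosis the median was -0.040 (0.0008 with plain library totals), with 2 higher and 3 lower at an unadjusted p under 0.05 (21.7%, against 5% of all genes).

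**Figure D4:**
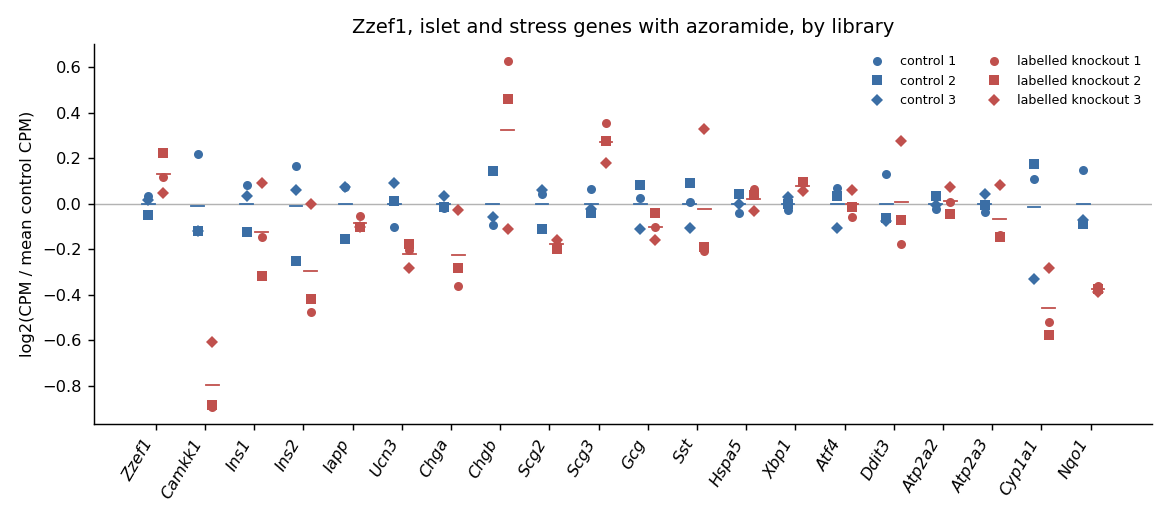
Level of 20 genes in each azoramide library, as log2 of CPM over the mean CPM of the 3 control libraries (vertical axis), with control libraries in blue, libraries labelled knockout in red, a symbol for each library number and bars for group means of the log2 values. Zzef1 is higher and Camkk1, Ucn3, Chga, Scg2 and Nqo1 are lower in all 3 libraries labelled knockout, while for Ins1, Ins2, Chgb, Sst and Ddit3 library 3 labelled knockout is well away from libraries 1 and 2.

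ER chaperones and the degradation machinery, the part of the cell azoramide is known to act on, showed no member at an unadjusted p under 0.05 among 32 tested. The median was 0.058, with 28 above 0, and the groups did not overlap for 4, all higher (12.5%, against 5.57% of all genes higher). Hspa5, the ER chaperone BiP, was at 2252, 2388 and 2313 CPM in the control libraries and 2422, 2376 and 2264 CPM in those labelled knockout, fully overlapping, with a difference of 0.022 and a 95% interval of -0.26 to 0.30. Ssr3, a subunit of the translocon-associated complex, was at 479.8, 481 and 489.8 against 537, 537 and 503 CPM (0.12 (SE 0.067)), and Syvn1, the ubiquitin ligase of ER-associated degradation, at 57.0, 60.3 and 57.0 against 61.2, 61.7 and 67.5 CPM (0.13 (SE 0.079)), both without overlap. The other two with groups apart were the chaperones Canx (0.066 (SE 0.059)) and Dnajb9 (0.11 (SE 0.10)), named here after their values were seen.

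Of 24 sensors and effectors of the unfolded protein response, 17 were above 0, with a median of 0.071. At an unadjusted p under 0.05, 1 was higher (4.17%, against 5% of all genes) and none lower, while the groups did not overlap for 4 higher and 1 lower (20.8%, against 11.1% of all genes). Xbp1, the transcription factor activated by IRE1, was at 339.5, 346 and 353 against 368, 369 and 359.6 CPM (0.079 (SE 0.064)), slightly higher in all 3 libraries labelled knockout. Atf6, a membrane-bound sensor, was at 205, 193 and 197 against 205, 219 and 234 CPM (0.14 (SE 0.078)). Atf4, the effector of the PERK branch, differed by -0.0032 with a 95% interval of -0.24 to 0.24, and Ddit3, which encodes the factor CHOP, by 0.021 with an interval of -0.32 to 0.36. Ddit3 was at 67.4, 59.0 and 58.4 CPM in the control libraries and 54.5, 58.5 and 74.5 CPM in those labelled knockout, lowest and highest in libraries labelled knockout. The gene at an unadjusted p under 0.05 was Vldlr, a lipoprotein receptor induced through the PERK branch, at 205, 199 and 188 against 229, 233 and 242 CPM (0.25 (SE 0.10)), where the difference with DMSO was -0.18. Besides Xbp1 and Vldlr, the groups were apart for Mthfd2, a mitochondrial folate enzyme (0.18 (SE 0.099)), and for Chac1 (0.18 (SE 0.13)) and Cebpb (-0.19 (SE 0.14)), of which the last 2 were chosen after their values were seen.

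Calcium genes of the ER showed 1 higher and 1 lower member of 24 at an unadjusted p under 0.05 (8.33%, against 5% of all genes). Orai2 and Orai3 encode store-operated channel subunits of the plasma membrane. Orai2 was at 27.5, 28.8 and 26.8 against 34.5, 33.1 and 31.4 CPM (0.25 (SE 0.082)), and Orai3 at 33.4, 33.9 and 32.5 against 29.0, 26.9 and 31.6 CPM (-0.19 (SE 0.090)). The groups did not overlap in either. Over the whole list they did not overlap for 1 higher and 3 lower members (16.7%, against 11.1% of all genes). Levels of the ER calcium pumps overlapped between the groups, Atp2a2 (SERCA2) at 808, 841 and 819 against 828, 797 and 866 CPM (0.013 (SE 0.054)) and Atp2a3 at 245, 250.1 and 259 against 228, 227 and 266 CPM (-0.064 (SE 0.086)). The median of the list was -0.026, or 0.016 with plain library totals.

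Krüppel-like factors, the family ZZEF1 is known to work with, had 1 of 14 tested members at an unadjusted p under 0.05 (7.14%, against 5% of all genes). Klf12, a repressor, was at 11.04, 12.2 and 10.4 against 12.4, 15.1 and 13.1 CPM (0.28 (SE 0.11)). It was 1 of 2 members with groups apart, both higher (14.3%, against 5.57% of all genes higher). Klf6 was at 27.5, 26.6 and 28.3 against 31.3, 32.8 and 25.6 CPM (0.12 (SE 0.091)) and Klf9 at 78.1, 73.8 and 75.2 against 68.7, 74.3 and 78.2 CPM (-0.038 (SE 0.066)). Members of the BCL2 family, which govern apoptosis, showed none of 13 at that level and a median of -0.0084, which was 0.034 with plain library totals and 0.019 when length and GC content were offset.

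Of 7 tested genes of the aryl hydrocarbon receptor, a sensor of foreign compounds, and its targets, 5 were below 0 and the median was -0.19. At an unadjusted p under 0.05, 1 was higher and 2 were lower (42.9%, against 5% of all genes). Cyp1a1, its classic target (chromosome 9, 57687928 to 57703824, plus strand), was at 43.4, 45.4 and 32.1 CPM in the control libraries and 28.1, 27.02 and 33.1 CPM in those labelled knockout. Control libraries 1 and 2 were above all others, while control library 3 lay below the highest labelled knockout library, and the difference was -0.45 (SE 0.14); with DMSO it was 0.15. Nqo1, given above, was lower too, and Arnt, the partner of the receptor, was higher, at 78.1, 83.4 and 76.9 against 94.2, 87.5 and 87.2 CPM (0.17 (SE 0.059)). The metallothionein Mt1 was at 1104, 1139.8 and 1185 against 1123, 1101 and 953 CPM (-0.11 (SE 0.072)) and Mt2 at 811, 775 and 846 against 833, 727 and 667 CPM (-0.13 (SE 0.078)), where the Mt2 difference with DMSO was -0.46. Of 12 tested metallothioneins and zinc transporters, 6 were above and 6 below 0, and the groups did not overlap for 3 higher and 1 lower (33.3%, against 11.1% of all genes). The higher ones were Slc39a14 (0.18 (SE 0.080)), Slc30a7 (0.13 (SE 0.062)) and Slc30a1 (0.12 (SE 0.084)) and the lower one Slc39a10 (-0.15 (SE 0.11)), the last 2 named after their values were seen. Nts, the neurotensin gene, was at 3.58, 4.55 and 4.78 CPM in the control libraries and 7.78, 10.7 and 4.27 CPM in those labelled knockout, high in libraries 1 and 2 labelled knockout, at 0.81 (SE 0.30).

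Circadian clock genes held 3 higher members and no lower one among 19 at an unadjusted p under 0.05 (15.8%, against 2.47% of all genes higher), and the groups did not overlap for 6, all higher (31.6%, against 5.57%). Per2, a repressor arm gene (chromosome 1, 91415982 to 91459324, minus strand), was at 53.7, 53.1 and 47.2 CPM in the control libraries and 56.5, 68.3 and 70.9 CPM in those labelled knockout, at 0.35 (SE 0.092) with azoramide and 0.30 with DMSO. Per1, its paralog, was at 58.5, 65.1 and 61.9 against 68.8, 73.3 and 78.3 CPM (0.25 (SE 0.079); 0.14 with DMSO). Ciart, another repressor of the clock, was at 13.9, 12.3 and 14.6 against 17.8, 15.1 and 19.53 CPM (0.36 (SE 0.14); 0.44 with DMSO). The median of the list was 0.061 with azoramide and 0.14 with DMSO, between different libraries. The labels do not give the time of day of collection.

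Interferon-stimulated genes, which answer viral or nucleic acid signals, were on the lower side, 26 of 28 below 0 with a median of -0.25, but their sums did not keep apart. They were 959, 982 and 963 CPM in the control libraries and 741, 1090 and 655 CPM in those labelled knockout (2-sided exact permutation p = 0.4), with labelled knockout library 2 the highest of the 6. Cxcl10, a chemokine, was at 6.05, 8.41 and 5.89 against 3.22, 5.06 and 2.96 CPM (-0.86 (SE 0.31)), without overlap, and Oas2, a sensor of double-stranded RNA, at 5.40, 3.52 and 4.61 against 1.99, 4.003 and 2.33 CPM (-0.70 (SE 0.28)). Without labelled knockout library 2 the median was -0.54, and without library 3 it was -0.10. Between the DMSO libraries the median of these interferon-stimulated genes was -0.25 too. Genes of NF-kB signaling had a median of -0.046 with azoramide and -0.46 with DMSO, and those of glycolysis and hypoxia 0.037 and -0.46. For these 2 lists the median of the per-gene differences between the treatments was 0.41 and 0.47, with 3 of 22 and 4 of 27 members at an unadjusted interaction p under 0.05 (3.73% of all genes). With DMSO, control libraries held 216, 332 and 249 CPM of NF-kB genes and labelled knockout libraries 228 and 205 CPM. For glycolysis and hypoxia genes the sums were 6165, 4625 and 4181 CPM against 4222 and 3997 CPM. Control library 2 was thus highest for the first list and control library 1 for the second.

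Macrophage markers were above 0 in all 17 tested, with a median of 0.62, whereas lymphocyte markers were barely detected. Tyrobp, an adaptor of immune receptors (chromosome 7, 30413760 to 30417585, plus strand), was at 1.41, 2.36 and 2.22 CPM in the control libraries and 5.63, 4.62 and 2.56 CPM in those labelled knockout. Its groups did not overlap, and the difference was 1.09 (SE 0.30). Adgre1, the F4/80 antigen, was at 0.529, 0.922 and 1.06 against 2.04, 1.501 and 1.14 CPM (0.89 (SE 0.38)), Csf1r, the receptor that macrophages need to survive, at 4.76, 5.82 and 5.06 against 12.98, 8.67 and 4.55 CPM (0.75 (SE 0.32)), and Fcgr3, an Fc receptor, at 1.18, 1.09 and 1.67 against 4.45, 3.23 and 0.968 CPM (1.13 (SE 0.42)). In these markers libraries 1 and 2 labelled knockout held the high values. Outside the list, Itgax, the integrin CD11c of dendritic cells and macrophages, was at 0.646, 1.61 and 1.61 against 4.56, 2.95 and 2.33 CPM (1.34 (SE 0.35)), and Cybb, the phagocyte oxidase, at 0.881, 0.403 and 1.11 against 3.33, 2.61 and 1.20 CPM (1.57 (SE 0.44)), the latter chosen after its values were seen.

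The summed macrophage level was 112, 124 and 148 CPM in the control libraries and 236, 169 and 113 CPM in those labelled knockout, a ratio of 1.35 (2-sided exact permutation p = 0.3). Of the 18 markers in the list 17 passed the filter, none was at 0 in all 6 libraries, and 4 were higher and none lower at an unadjusted p under 0.05 (23.5%, against 2.47% of all genes higher). The groups did not overlap for 2 of the 17 (11.8%, against 5.57% of all genes higher). Without labelled knockout library 1 the median was 0.24, and without library 3 it was 0.99. With DMSO it was 0.11. Labelled knockout library 1 was the highest of the 6 libraries for 16 of the 17 markers, and library 3 was below all control libraries for 8, within their range for 6 and above it for 3. Of 9 lymphocyte markers 1 passed the filter, their summed level was 1.02 to 2 CPM, and Cd3e, Cd8a and Ms4a1 were at 0 in all 6 libraries. Whether the macrophage content bears on the other differences was not tested.

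**Figure D5:**
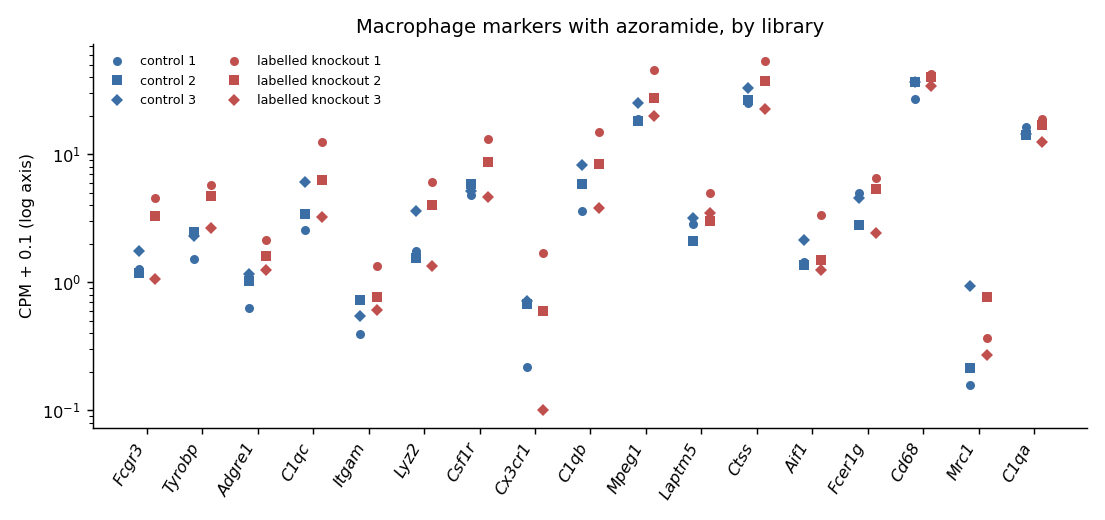
Level of the 17 tested macrophage markers in each azoramide library (vertical axis, CPM plus 0.1 on a log axis), with control libraries in blue, libraries labelled knockout in red and a symbol for each library number. Red circles (library 1) are the highest point for 16 of the 17 markers, and red diamonds (library 3) lie near or below the blue points for most.

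Markers of other cell types showed differences of both signs. Glucagon (Gcg), the alpha cell hormone, was at 25831, 26867 and 23543 against 23639, 24722 and 22757 CPM (-0.10 (SE 0.068)). Somatostatin (Sst) of delta cells was at 2012, 2130.4 and 1859.7 against 1733, 1752 and 2512 CPM (-0.0011 (SE 0.13)), with labelled knockout library 3 highest, and Ppy and Pyy, hormones of pancreatic polypeptide cells, differed by -0.091 (SE 0.17) and -0.11 (SE 0.087). Krt7, a keratin of duct cells, was at 629, 588 and 619 CPM in the control libraries and 532, 498 and 559 CPM in those labelled knockout, without overlap, at -0.21 (SE 0.065), while the summed duct markers had a ratio of 0.999. Emcn, an endothelial surface protein, was at 32.6, 31.1 and 28.3 against 22.6, 24.2 and 27.1 CPM (-0.32 (SE 0.098)), while the summed endothelial markers had a ratio of 0.972. Acinar markers of the exocrine tissue varied most within groups, 1676, 4601 and 3036 CPM in the control libraries and 2748, 5619 and 1007 CPM in those labelled knockout (2-sided exact permutation p = 1). Of 5 adipocyte markers only Fabp4, a fatty acid binding protein, passed the filter, at 20.3, 21.2 and 19.8 against 17.4, 16.85 and 15.9 CPM (-0.29 (SE 0.12)), without overlap and with a difference of -0.55 with DMSO. The summed adipocyte markers were almost wholly Fabp4, at 20.3, 21.2 and 19.8 against 17.4, 16.85 and 16 CPM. Their ratio of 0.82 (2-sided exact permutation p = 0.1, the smallest possible) thus repeats that gene. The summed lymphocyte markers had a ratio of 0.711 (p = 0.2 in the same exact test).

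Genes called depended on labelled knockout library 3. Without it the edgeR test called 3 genes, each at an adjusted p of 0.0211 and each higher in the libraries labelled knockout. Rgs2, a regulator that shortens signals of G proteins (chromosome 1, 143999338 to 144004161, minus strand), was at 43.0, 46.1 and 47.5 CPM in the control libraries and 75.6, 68.9 and 44.5 CPM in those labelled knockout, with a value of 0.67 without library 3. Ctsc, the lysosomal protease cathepsin C, was at 7.22, 7.49 and 7.72 against 18.2, 13.2 and 5.12 CPM, with a value of 1.07. Serping1, the inhibitor of the complement enzyme C1, was at 137, 148 and 136 against 211, 194 and 113 CPM, with a value of 0.53. In Ctsc and Serping1 library 3 was the lowest of all 6, and in Rgs2 it lay within the control range. These 3 genes lie outside the naming rule and were chosen after their values were seen.

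With the DMSO control library 2 left out as well, which is in neither group and acts through the shared estimate of spread, 84 genes passed, 49 higher and 35 lower. In voom, the lowest quality weights were those of DMSO control library 2 (0.398) and labelled knockout azoramide library 3 (0.499). Leaving out libraries that stand apart in the same data can itself lower the spread within groups, so the 84 are given as a description. All 84 had the same sign with all libraries, where 45 had an unadjusted p under 0.05. That fit includes the libraries that gave the 84 calls, so the shared sign is not a separate check. Labelled knockout library 3 was on the same side of the control range as the call for 29 of the 84, within the control range for 24, and beyond it on the opposite side for 31. The 84 included Chgb (0.54), Chga (-0.32), St18 (0.32), Isl1 (0.31), Rgs17 (0.51), Csf1r (1.06), Tyrobp (1.35) and Fcgr3 (1.54), of which Rgs17 was chosen after its values were seen. They also held Cspp1, Malat1, Nktr and Def8, which were named by a rule that required all 3 libraries labelled knockout to stand apart. The median exonic length was 5808 bases for the 49 and 3524 bases for the 35, against 4279.5 bases over all genes.

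Whether the genotype difference itself differed between azoramide and DMSO was tested as an interaction. No gene passed in edgeR (0 of 15093, 0%; smallest adjusted p = 0.999) or in DESeq2, and 563 genes had an unadjusted p under 0.05 (3.73%), 294 of them more positive with azoramide and 269 more negative. For Zzef1 the interaction was 0.39 (SE 0.12), edgeR adjusted p = 0.999. For Camkk1 it was -1.04 (SE 0.34), for Cttnbp2 -2.70 (SE 0.86), for Cyp1a1 -0.61 (SE 0.26) and for Itgax 1.65 (SE 0.51), none past the threshold. A p that misses the threshold does not show that the 2 differences were equal, and the group labelled knockout with DMSO has 2 libraries. With labelled knockout azoramide library 3 and DMSO control library 2 left out, 6 genes passed the interaction test.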

How the data were processed

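The authors deposited raw gene counts, with no scaling, for 32285 genes and all libraries in a single table, in which no column belonged to other samples. Alignment with STAR 2.7.2a, build mm10 and DESeq2 are named in the submitters' processing notes. How reads were counted, with which annotation and whether by strand, is not given in the sources used here. Depth is given with the results.

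From the counts, edgeR 4.0.16 in R 4.3.3 fitted all 11 libraries as 4 groups (TMM, filter on low counts by group, robust quasi-likelihood test, Benjamini-Hochberg over 15093 genes, threshold 0.05). The main contrast was labelled knockout minus control with azoramide. DESeq2 1.42.0, voom in limma 3.58.1, other scalings, filters, offsets (mgcv 1.9.3) and left-out libraries were alternatives. The procedure was tested on simulated data. Libraries of a group differed by more than sampling noise (chi-square per degree of freedom 5.69 to 25.17), so each was kept as a sample. Coordinates are 1-based from GENCODE M21 (GRCm38), and 32158 identifiers had a length and GC content.

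The comparison and the 38 gene lists (26 of pathways, 12 of cell markers) were chosen with earlier results of these data known. Lists are described by counts and medians, without a set test. The naming rule took Zzef1, genes passing in edgeR or DESeq2, the 12 higher and 12 lower of smallest p that were expressed (mean log2 CPM at or above 1), had an established symbol and groups that stood apart, at most 4 genes of smallest p from each list, and fixed islet and stress genes. The text discusses part of them, and some are not reported here. Symbols missing from the table were matched through RefSeq synonyms.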

Additional observations from a re-analysis of the deposited data

How the results depend on the processing

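Counts of genes passing the threshold were 0 in edgeR with all libraries, with DESeq2 size factors, with plain library totals, without a filter, after an offset for length and GC content and with only the azoramide libraries, and 0 in voom with quality weights. DESeq2 gave 2. Leaving out 1 library gave 0 to 3 and leaving out labelled knockout azoramide library 3 with DMSO control library 2 gave 84. For the interaction, leaving out 1 library gave 0 to 1 and leaving out both gave 6. At an unadjusted p under 0.05 the genotype count of 754 became 1190 in voom and 1573 without both libraries, and 605 to 1094 without 1 library. The interaction count of 563 became 1443 in voom and 1176 without both, and 385 to 1191 without 1 library. The cause of these moves was not tested.

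With the replicate number as a block 0 genes passed in either test, with 799 and 879 at an unadjusted p under 0.05. With azoramide, same-numbered control and labelled knockout libraries had correlated deviations of r = -0.22, 0.27 and -0.21, against -0.321 to 0.417 for unlike numbers. So few values cannot exclude a pairing. Whether the numbers pair the azoramide and DMSO libraries of a genotype was not examined.

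Of 112 genes named, 103 kept their direction in all 20 other settings. The other 9 had differences smaller than their SE or close to it. With plain library totals Klf9 was at 0.0045, Atf4 at 0.038 and Sst at 0.037. In voom Atp2a2 was at -0.0026 and Ddit3 at -0.051. Sst was at 0.0005 with only the azoramide libraries, Atf4 at 0.0024 and Reg1 at -0.26 with the block, and with the length and GC offset Atf4 was at 0.041, Sst at 0.096 and Ppy at 0.0071. Without both libraries Atp2a2 was at -0.019 and Ddit3 at -0.12. Leaving out 1 library gave Atf4 -0.053 to 0.024, Atp2a2 -0.0185 to 0.041, Ddit3 -0.12 to 0.11, Hspa5 -0.0061 to 0.0497, Klf9 -0.082 to 0.0091, Pyy -0.19 to 0.0035, Reg1 -0.77 to 0.76 and Sst -0.20 to 0.0896.

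Of 36 list medians, 21 kept their sign in every setting that did not leave out a single library, among them ribosomal proteins (-0.13 to -0.059 over all 20), macrophage markers (0.24 to 0.99) and nuclear long noncoding RNAs (0.10 to 0.19). As a share of plain totals, the ratio of summed markers went from 1 to 1.03 for delta cells and from 0.999 to 1.03 for duct cells, with the other 10 marker lists on the same side of 1. Depth limits values under about 2 CPM, and 3 libraries a side limit the rest.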

Other observations

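Genes of the Reg family, secreted lectin-like proteins of the exocrine pancreas and of stressed islets, varied widely between libraries of 1 label. Reg3b was at 2.82, 21.3 and 9.89 CPM in the control libraries and 78.8, 110.5 and 0.285 CPM in those labelled knockout, Reg2 at 3.23, 42.7 and 23.1 against 71.2, 184 and 0.569 CPM, Reg3a at 0.0590, 1.61 and 0.611 against 8.85, 14.2 and 0.171 CPM and Reg3d at 0.176, 4.50 and 2.28 against 5.63, 11.8 and 0.171 CPM. In these 4 genes, libraries 1 and 2 labelled knockout held the highest levels and library 3 was below 1 CPM, under all control libraries except for Reg3a. The differences were 2.48 (SE 1.51), 1.89 (SE 1.62), 3.34 (SE 1.45) and 1.34 (SE 1.33), with edgeR adjusted p of 0.968, 0.972, 0.968 and 0.976. These 4 genes were chosen after their values were seen. Reg1, another of the family, was at 24.4, 139.9 and 103 against 94.0, 207 and 10.5 CPM, with labelled knockout library 1 below 2 control libraries and a difference of 0.22 (SE 1.19). The acinar markers, given with the other cell types, were likewise lowest in library 3.

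The lists not described so far held few members at an unadjusted p under 0.05. Immediate early genes had 1 higher, Egr2 (1.39 (SE 0.65)), and 1 lower, Jund (-0.16 (SE 0.066)), of 19 (10.5%, against 5% of all genes). Egr2 was at 0.176, 0.115 and 0.389 against 0.805, 0.445 and 0.569 CPM, levels at which depth limits the value. The median of the list was 0.061. Its groups did not overlap for 4, all higher (21.1%, against 5.57% of all genes higher and 11.1% in either direction). There were none among 22 genes of cholesterol synthesis and uptake (median -0.011, and 0.030 with plain library totals), 21 of fatty acid metabolism (-0.0091, and 0.034), 13 of the cell cycle (0.068) and 14 of MHC class I presentation (-0.073). Nor were there any among 8 alpha cell (-0.074), 5 delta cell (-0.0011, and 0.037), 3 pancreatic polypeptide and ghrelin cell (-0.091), 11 mesenchymal (0.072) and 6 Schwann cell markers (0.16). The 8 beta cell markers had 1 lower member, Ucn3 (12.5%, against 2.52% of all genes lower), and a median of -0.11.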
